A study of Xenopus tropicalis with 3 samples.

Results

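Collagens are the triple-helical proteins that give the extracellular matrix its strength, and 40 genes encoding them were examined in stage 65 urostyle of Xenopus tropicalis. The urostyle is the bony rod of the frog's hind trunk, formed at metamorphosis. Members were all protein-coding genes on chromosomes 1 to 10 whose symbol begins with the collagen pattern of a type number and a chain number (col1a1, col4a5 and so on), 40 of 21749 coding genes in all. Members were chosen by name and not by any measured value, although earlier results of these data were known. By the known role of each type, 7 were placed in a fibrillar class (types I, III, V and XXIV), 7 in a cartilage class (types II, IX, X, XI and XXVII), 7 in a basement membrane class (types IV, VII, XV and XVIII) and 19 in a class of other collagens. The chains col11a1, col4a3 and col4a4 were not analysed here.

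The assay was ATAC-seq, which maps open chromatin by letting a transposase insert sequencing adapters where DNA is exposed; each of 3 stages has 1 library. The group used here is stage 65 urostyle, 1 library; stages 56 and 61 also have 1 library each, but their peak lists use other chromosome names than the gene table, and they were not set against genes. No genotype, treatment or number of animals is given in the labels. The protocols in the labels speak of dissected tissue crushed with a pestle and the series' design text of laser capture, so the cells of the sample are not settled by the labels; in whole tissue, a site open in a few cells and one weakly open in many cannot be told apart. No RNA was measured in this library, so the labelled tissue was not checked against its marker genes. With 1 library there is no replicate check, no test was made, and every interval is a 95% interval. Those of counts cover counting error only, those of shares and medians treat the genes as a sample, and none covers the spread between animals or libraries.

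Fibril-forming collagens are secreted as long procollagens, trimmed, and packed into the banded fibrils of bone, tendon, skin and cartilage, whereas type IV chains build the sheet-like network of basement membranes. Other collagens coat fibrils, form beaded microfilaments or cross the cell membrane. In the growing skeleton, cartilage is built on type II collagen and bone on type I, and a rod that ossifies over a cartilage template passes through both. An open site at a gene is not a measure of its RNA level.

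The list held 311625 peaks, of which 311385 lay on chromosomes 1 to 10. Peak folds are the authors' ratio of summit pileup to background, with 1 added to both. They were whole multiples of 0.1497, within 0.02 of a step, in 100% of peaks with a fold under 50. This gives a background of 5.68 and lets each fold be read as a whole count at the summit. These counts are called fragments here, but whether whole fragments or single insertions were piled up is not given. The median peak had 21 fragments at its summit and the lowest 12. Coordinates are those of the peak list, 1-based, set against the UCB_Xtro_10.0 gene table; on 10 of 10 chromosomes the last peak lay beyond the last coding gene, by 1.88 to 191 kb. The table has no strand, so a gene end is either the start or the finish of a gene, and the left end is the one with the lower coordinate.

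Collagen genes had weaker peaks at their ends than coding genes in general, and fewer had both ends occupied. The share with at least 1 end peak depended on the window: it was lower in collagen genes at 1 kb, and with 2.5 kb windows it was 97.5%, against 96.3% of length-weighted coding genes. A peak lay within 1 kb of a gene end in 31 of 40 collagen genes (77.5%, exact Clopper-Pearson interval 61.5 to 89.2), against 85.7% of all coding genes. Long genes dominate the family: 26 of the 40 fell in the top decile of coding gene length. When all coding genes were weighted to the collagen genes' deciles of length, 87.2% had a gene-end peak, within the collagen interval. Both ends had a peak in 7 of 40 collagen genes (17.5%, 7.34 to 32.8), against 45.2% of all coding genes and 39.1% after weighting by length, which lies outside the collagen interval. Of the other occupied collagen genes, 18 had a peak at the left end alone and 6 at the right end alone. This split was not set against coding genes.

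The best gene-end fold, with genes lacking such a peak set to 0, had a median of 3.29 over the 40 collagen genes (order-statistic interval 2.84 to 3.89) and of 4.04 over all coding genes, which was also 4.04 after weighting by length. It was 4 or more in 13 collagen genes (32.5%, 18.6 to 49.1), against 50.6% of coding genes and 53.8% after weighting. It was 8 or more in 0 of 40 collagen genes, an exact interval of up to 8.81%, against 15.9% of all coding genes and 12.8% after weighting. The highest fold at any collagen gene end was 6.59. Peaks were counted by overlap, so a summit could lie beyond the window, up to 1916 bp from the end at col1a2. With peaks assigned by summit, the median best fold was 3.14 in collagen genes, against 3.59 in length-weighted coding genes. The share with an end peak was then 67.5%, against 78.0%. Among occupied genes alone the median was 3.74 in 31 collagen genes and 4.34 in all coding genes. No interval was computed for these medians, so whether end peaks were weaker where present was not tested. Best gene-end peaks of collagen genes had 13 to 43 fragments at the summit, with a median of 24, against a median of 28 over all occupied coding genes, and were 293 to 2517 bp wide with a median of 607 bp. The Poisson interval of 26 of the 31 contained the all-gene median, so most single members were within counting error of that median. The like share of coding genes was not computed, so this count sets nothing apart in collagen genes. The order of members among themselves was not tested.

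**Figure D1:**
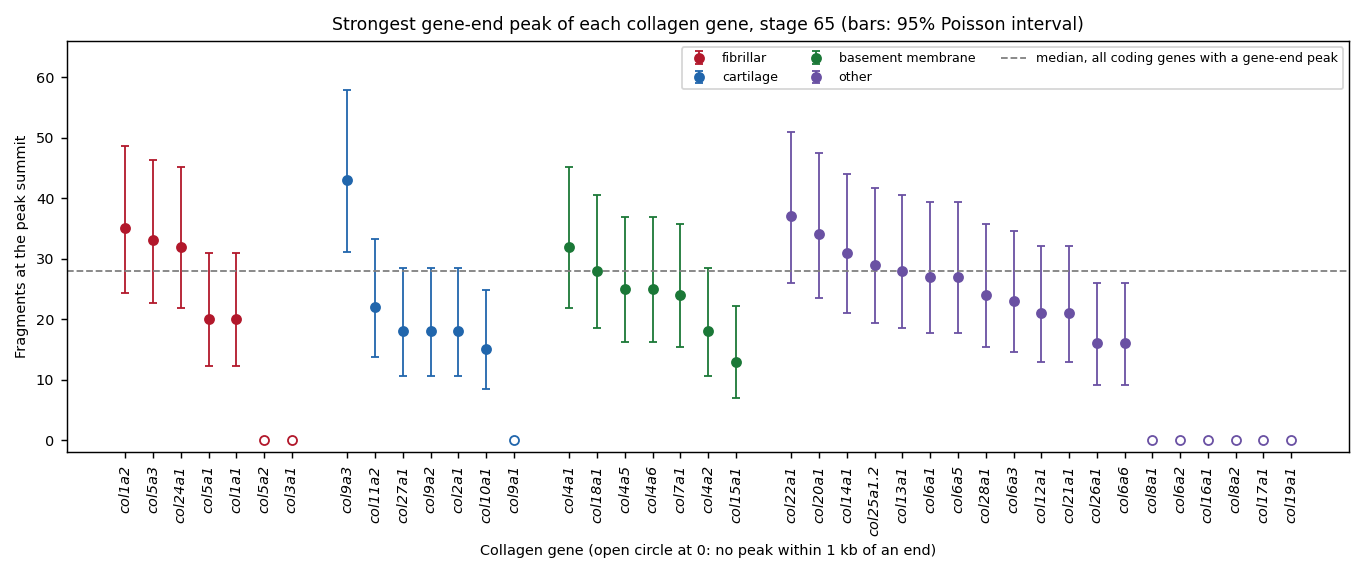
Fragments at the summit of the strongest peak within 1 kb of a gene end, for each of the 40 collagen genes by class, with 95% Poisson intervals; open circles at 0 mark the 9 genes with no such peak and the dashed line is the median of 28 fragments over all coding genes that have one. The highest value is 43 fragments at col9a3, and most intervals cross the line.

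In the fibrillar class, 5 of 7 genes had a gene-end peak. The strongest lay at col1a2, which encodes the second chain of type I collagen, the main fibril of bone and tendon. Its peak on chromosome 6 at 32946095 to 32948611 was 2517 bp wide and covered the left end of the gene (32946509 to 32982130), with a fold of 5.39 and 35 fragments (24.4 to 48.7). The summit, where that fold was read, lay 1916 bp inside the gene, beyond the 1 kb window. Its partner col1a1, encoding the other type I chain, had a weaker peak of 437 bp on chromosome 10 at 18236664 to 18237100, just inside its left end, with a fold of 3.14 and 20 fragments (12.2 to 30.9). The intervals of the pair overlapped, so the chains of one protein were not told apart by their end peaks.

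The type V chains start fibrils and limit their diameter. For col5a3 the peak was narrow, 327 bp on chromosome 4 at 109550456 to 109550782, and lay 117 bp outside the right end, with a fold of 5.09 and 33 fragments (22.7 to 46.3). The end peak of col5a1 had a fold of 3.14 and 20 fragments (12.2 to 30.9), an interval that overlaps that of col5a3, on chromosome 8 at 7687008 to 7688166. No gene-end peak was called at col5a2, whose nearest peaks lay 2142 bp from the left end and 4245 bp from the right. The type XXIV gene col24a1, linked to bone in the mouse, had peaks at both ends, with folds of 3.14 on the left and 4.94 on the right (chromosome 4, 76936557 to 76937629, 32 fragments). Finally col3a1, encoding type III collagen of stretchable tissues, had no peak within 1 kb of an end, the nearest lying 3184 bp from its left end and 1545 bp from its right.

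In the cartilage class, 6 of 7 genes had a gene-end peak and 1 of them had the strongest of the family. It belonged to col9a3, a chain of type IX collagen, which sits on the surface of cartilage fibrils. The peak on chromosome 10 at 2489943 to 2490556 spanned the right end of the gene with a fold of 6.59 and 43 fragments (31.1 to 57.9), and the left end had a fold of 6.14. That gene lies 2.45 Mb from the first peak of its chromosome, and peaks covered 55.2% of its body. The other type IX chains were lower: col9a2 had a fold of 2.84 with 18 fragments (10.7 to 28.4) on chromosome 2 at 88005076 to 88005682, and col9a1 had no gene-end peak, its nearest lying 1084 bp from the left end. Among the 3 chains of one trimer, only the intervals of col9a3 and col9a2 can be compared, and they did not overlap.

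The main cartilage collagen gene, col2a1, had one weak peak at an end. It was 309 bp wide on chromosome 2 at 143714352 to 143714660, inside the left end, with a fold of 2.84 and 18 fragments (10.7 to 28.4). Its fibril partner col11a2 had a fold of 3.44 with 22 fragments (13.8 to 33.3) in a peak across its left end on chromosome 8 at 72316606 to 72317175. The type XXVII gene col27a1, a cartilage fibril former, had weak peaks at both ends, with folds of 2.40 and 2.84, the stronger one on the right at 24266846 to 24267534 on chromosome 8. The gene of hypertrophic cartilage, col10a1, had a fold of 2.40 with 15 fragments (8.40 to 24.7) on chromosome 5 at 75085414 to 75085882, where the lowest summit in the whole list had 12. Leaving col9a3 aside, the cartilage genes with a gene-end peak thus had 15 to 22 fragments there, all below the all-gene median.

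All 7 basement membrane genes had a gene-end peak (exact interval of the share 59.0 to 100%), the highest share of the classes. Coding genes weighted to the lengths of each class had a share of 87.1 to 87.3%, within the interval of every class. The difference between classes was not tested, and the intervals of all 4 classes overlap. The 7 genes are not separate sites, since col4a5 and col4a6 have the same best end peak. Folds ran from 2.10 to 4.94. The highest was at col4a1, a chain of the common type IV network, with 32 fragments (21.9 to 45.2) in a peak 2392 bp wide. The multiplexin col18a1, whose end fragment is endostatin, had a fold of 4.34 with 28 fragments (18.6 to 40.5) across its right end on chromosome 9 at 61620468 to 61621539. The gene for type VII collagen, col7a1, which anchors the epidermis to the dermis, had a fold of 3.74 with 24 fragments on chromosome 4 at 135855347 to 135856096, outside its right end. The other multiplexin, col15a1, had the weakest end peak of the family, with a fold of 2.10 and 13 fragments (6.92 to 22.2) on chromosome 10 at 8583595 to 8584332.

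Type IV genes lie in pairs, which in human and mouse are head to head and share a promoter. In the frog table the spans of col4a2 (117190555 to 117313485) and col4a1 (117308323 to 117410626) overlapped by 5163 bp on chromosome 2. The 2392 bp peak at 117307004 to 117309395 covered the left end of col4a1 inside the span of col4a2, and a second, weak peak of 13 fragments lay within the overlap at 117310486 to 117310851. No peak lay within 1 kb of the right end of col4a2, so its own best end peak was at its left end, with a fold of 2.84. On chromosome 8 col4a6 ended at 50870050 and col4a5 began at 50870950, 899 bp apart. A 387 bp peak at 50870924 to 50871310 covered the end of col4a5 with a fold of 3.89 and 25 fragments (16.2 to 36.9), and a 299 bp peak with 21 fragments lay at 50869680 to 50869978, just inside col4a6. Because the gap is shorter than the window, the same 387 bp peak was counted as the best end peak of both genes.

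A further neighbouring pair, col5a2 and col3a1 on chromosome 9, was 11.1 kb apart, and neither of its facing ends had a peak within 1 kb. Between them lay 3 peaks, with folds of 3.29, 4.19 and 2.25, the highest at 48123677 to 48124713 with 27 fragments (17.8 to 39.3). These fibrillar genes thus had peaks in the gap but not at the annotated ends. The number of peaks in the gap was not set against gaps between other genes.

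In the class of other collagens, 13 of 19 genes had a gene-end peak. The highest fold was 5.69, at the right end of col22a1, a collagen of the muscle to tendon junction (chromosome 6, 146029526 to 146030871, 37 fragments, 26.1 to 51). Next came col20a1 with a fold of 5.24 and col14a1, which coats type I fibrils, with 4.79. Their peaks, on chromosome 10 at 2123566 to 2125170 and on chromosome 6 at 138567769 to 138569669, also lay within 1 kb of an end of chrna4 and of mrpl13, and were the only best end peaks shared with a gene outside the family. The transmembrane collagen genes col25a1.2 and col13a1 had folds of 4.49 (chromosome 1, 67575782 to 67576767) and 4.34 (chromosome 7, 45592126 to 45593957), while the third of that kind, col17a1, which fixes the epidermis to its basement membrane, had no gene-end peak.

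Type VI collagen forms beaded filaments around cells, and its 5 genes had folds of 4.19 at both col6a1 and col6a5, 3.59 at col6a3, 2.55 at col6a6 and no peak within 1 kb at col6a2. The gene col28a1, of a related type, had a fold of 3.74. Among fibril-coating collagens of this class, col12a1 and col21a1 both had 3.29, and col16a1 and col19a1 had no gene-end peak. The fold was 2.55 at col26a1. Both genes of type VIII collagen, the short-chain network of vessel walls and the cornea, lacked one (col8a1 and col8a2). In the 9 collagen genes without a gene-end peak, the nearest peak lay 1010 to 3276 bp from an end, with a median of 1251 bp. Such distances were not computed for coding genes without a gene-end peak.

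Inside the genes, peaks were sparser than in coding genes weighted to the same deciles of length. The top decile, with 26 collagen genes, ran from 77168 to 1312976 bp, and lengths within it were not matched. Summits inside the annotated span, per 10 kb of span, had a median of 1.60 over the 40 collagen genes (1.41 to 1.85), against 2.30 over all coding genes and 1.98 after weighting by length. Within its own decile of length, the density of 28 of 40 collagen genes was below the decile's median (70.0%, 53.5 to 83.4), as it was for 50.6% of coding genes. Peaks covered a median of 9.35% of the collagen spans (7.16 to 12), against 16.3% of all coding genes and 13% after weighting. Every collagen gene had at least 1 summit in its body, as did 89.1% of all coding genes and 99.9% after weighting, so the contrast was in number and not in presence.

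In the 10 kb on either side of the collagen genes, median summit density was not lower. Flank density had a median of 2.5 summits per 10 kb in collagen genes (2 to 3), and the same 2.5 in all coding genes, weighted or not. With 20 kb flanks it was 2.125, against 2.25 after weighting, and with peaks up to 2 kb wide it was 2.5, against 2. Peaks covered a median of 16.3% of the 10 kb flanks (11.4 to 20.9), against 19.6% in all coding genes and 17.65% after weighting, both within the collagen interval. Flanks were denser than the body in 31 of 40 collagen genes (77.5%, 61.5 to 89.2), against 53.6% of coding genes and 58.9% after weighting. The surroundings at a larger scale, 500 kb to each side, had a median of 1.98 summits per 10 kb around collagen genes and 2.25 around coding genes (2.07 weighted). The body was sparser than these surroundings in 32 of 40 collagen genes (80.0%, 64.4 to 90.9), against 49.3% of coding genes and 56.3% after weighting, and the median ratio of body to surroundings was 0.80 (0.710 to 0.906) in collagen genes and 0.962 in length-weighted genes.

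**Figure D2:**
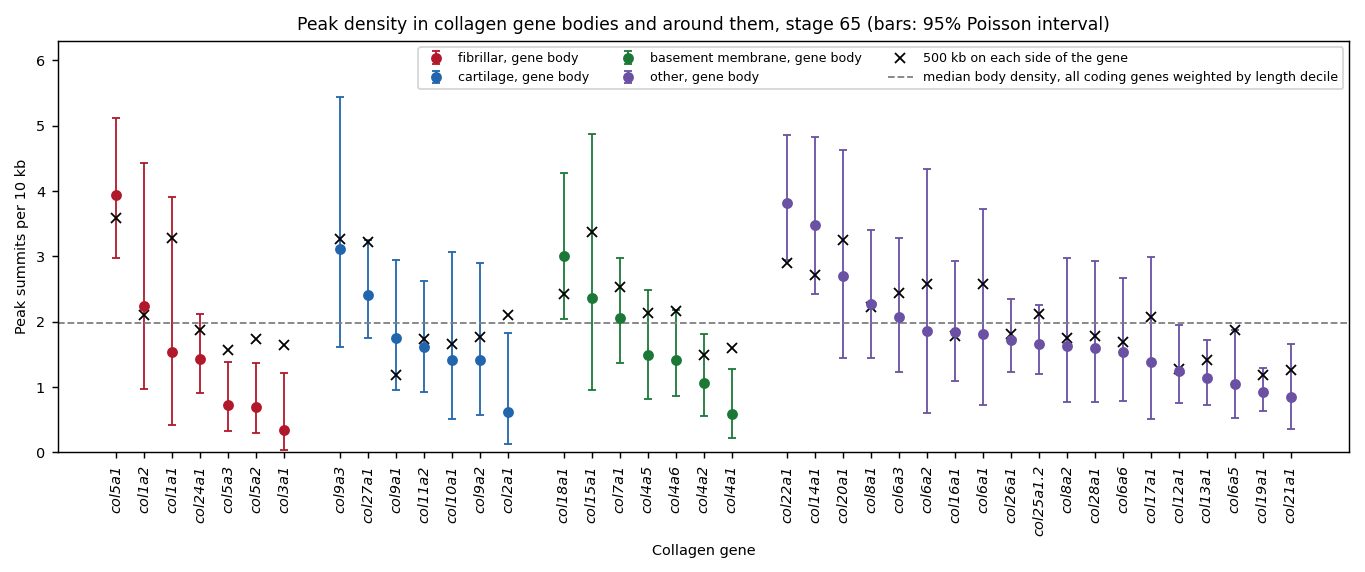
Peak summits per 10 kb of gene body for each collagen gene, by class and from high to low, with 95% Poisson intervals; crosses give the density in the 500 kb on each side and the dashed line the length-weighted median of 1.98 over all coding genes. Most bodies lie at or below their cross, and col3a1, col2a1 and col4a1 lie lowest in their classes.

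The lowest bodies belonged to fibril and basement membrane genes. The 59.5 kb span of col3a1 held 2 summits, 0.336 per 10 kb (0.0407 to 1.21), against 1.65 in its surroundings, and only 0.230% of genes of its length decile were lower. In col4a1, 6 summits over 102 kb gave 0.586 per 10 kb against 1.59 around it. In col2a1, 3 summits over 48.1 kb gave 0.624 against 2.10, and 1 stretch of 37.5 kb, 78.0% of the gene, had no peak. In col5a2, 8 summits gave 0.691 against 1.73. Their body peaks were weak as well as few: the highest body fold was 3.74 in col3a1, 3.14 in both col4a1 and col2a1 and 4.79 in col5a2.

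The ratio of body to surroundings was under 0.5 in 6 of 40 collagen genes (15%, 5.71 to 29.8), against 16.5% of all coding genes, a share raised by short genes with no summit, and 4.62% after weighting by length. The 6 were col3a1 (0.204), col2a1 (0.297), col4a1 (0.369), col5a2 (0.399), col1a1 (0.466) and col5a3 (0.469). In col1a1, with 4 summits, the Poisson interval of 0.417 to 3.92 per 10 kb held the 3.28 of its surroundings. The intervals of the others lay below theirs. With col1a1 counted, the 6 include 4 of the 7 fibrillar genes. They also include 5 of the 10 fibril-forming chains when col2a1, col11a2 and col27a1 are added to the fibrillar class. These counts take col5a2 and col3a1 as separate genes, although they lie 11.1 kb apart and share most of their surroundings. The exceptions among fibril formers were col1a2, with 8 summits (2.25 per 10 kb against 2.10 around it), and col5a1, with 56 (3.94 against 3.58), while col24a1, col27a1 and col11a2 had ratios of 0.758, 0.750 and 0.934. The median ratio was 0.469 for fibrillar genes (0.204 to 1.10), 0.850 for cartilage genes (0.297 to 1.47), 0.701 for basement membrane genes (0.369 to 1.24) and 0.851 for other collagens (0.721 to 0.980). In each class of 7 genes this interval is the full range, from the lowest gene to the highest. Ranges of so few genes cannot tell the classes apart, and the difference between classes was not tested.

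The densest bodies were those of col5a1 (3.94 per 10 kb, 2.97 to 5.11), col22a1 with 66 summits (3.81, 2.95 to 4.85), col14a1 with 35 (3.47, 2.42 to 4.83) and col9a3 with 12 (3.11, 1.61 to 5.44). Their surroundings were dense too, with 3.58, 2.90, 2.71 and 3.27 summits per 10 kb. In col9a3 the peaks merged into wide ones, covering 55.2% of the body, and in the nearby col20a1 they covered 49.4% with 2.70 summits per 10 kb. Over the 40 collagen genes, body density and surrounding density had a Spearman correlation of 0.75, a description over genes of 1 library. Over all 21749 coding genes it was 0.45. That value was not weighted by length, and the median length was 15506 bp in coding genes and 98156.5 bp in collagen genes. Whether collagen bodies follow their surroundings more closely than other genes was therefore not tested.

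Position along the chromosome went with these differences. The 5 collagen genes within 10 Mb of the first or last peak of their chromosome (col9a3, col20a1, col5a1, col22a1 and col15a1) had 2.36 to 3.94 summits per 10 kb of body, with a median of 3.11, and all coding genes so placed had a median of 3.24. The 35 farther in had a median of 1.53 in collagen genes, against 1.85 for length-weighted coding genes there. The lower density of collagen bodies was therefore seen without the genes near chromosome edges.

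**Figure D3:**
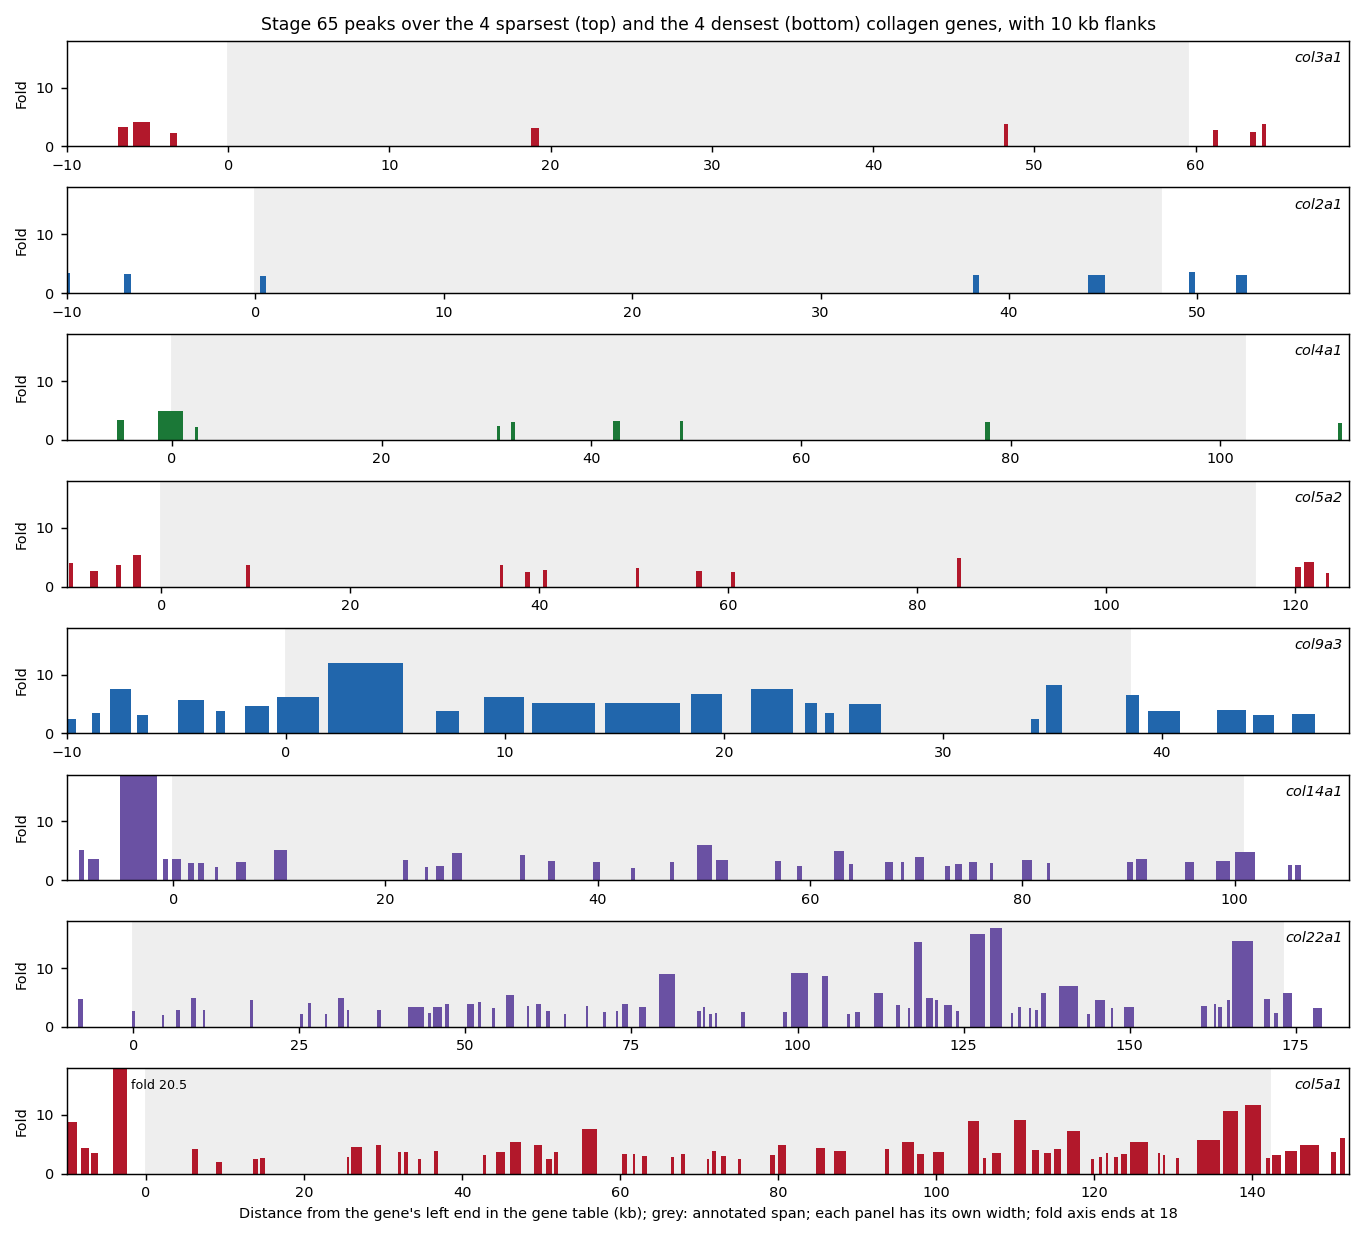
Stage 65 peaks over the collagen genes with the 4 lowest body densities (upper panels) and the 4 highest (lower panels), as bars from start to end of each peak with the authors' fold as height, against distance from the left end in kb; grey marks the annotated span. The upper gene bodies hold 2 to 8 summits with folds of at most 4.79, whereas col22a1 and col5a1 hold 66 and 56.

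Among the remaining genes, body densities followed no class. Basement membrane genes ran from col18a1 (31 summits, 3.01 per 10 kb) through col15a1 (2.36) and col7a1 (2.05) to col4a5 (1.48), col4a6 (1.41), col4a2 (1.06) and col4a1. The 4 type IV genes, with a pooled 1.15 summits per 10 kb over 53 summits, had the lowest pooled density of the structural families with more than 1 gene. Cartilage genes had 2.41 at col27a1, 1.75 at col9a1, 1.62 at col11a2 and 1.41 at both col10a1 and col9a2. In the fibrillar class col1a1 had 4 summits (1.53), col24a1 24 (1.42) and col5a3 9 (0.731).

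In the class of other collagens the range was 0.842 to 3.81 summits per 10 kb, lowest at col21a1, which also had no summit in either flank, and next lowest at col19a1 (0.924), the longest gene at 368 kb, with a stretch of 69.3 kb free of peaks. The 5 type VI genes had 2.08 at col6a3, 1.86 at col6a2, 1.81 at col6a1, 1.53 at col6a6 and 1.05 at col6a5. The others lay between, with 2.27 at col8a1, 1.85 at col16a1, 1.72 at col26a1, 1.66 at col25a1.2, 1.62 at col8a2, 1.59 at col28a1, 1.38 at col17a1, 1.24 at col12a1 and 1.14 at col13a1.

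By distance from the gene ends, the collagen interval held the coding gene value in each of the 15 bins of 2 kb, so no single bin set collagen genes apart. From 8 to 4 kb outside an end, collagen genes had 2.88 summits per 10 kb in each 2 kb bin (2.10 to 3.83), and length-weighted coding genes had 2.42. In the 4 kb just outside, collagen genes had 2.06 and 2.25, and coding genes 2.44 and 2.45. In the first 2 kb inside an end collagen genes had 2.44 (1.73 to 3.33) and coding genes 2.85, their highest bin. From 12 to 20 kb inside, collagen genes had 1.35 to 1.47 summits per 10 kb, and coding genes 2.08 to 2.13. In the innermost bin the collagen interval ran from 0.810 to 2.10, with a coding gene value of 2.08. The all-gene profile was highest just inside the gene ends, and the collagen profile, with 39 summits in that bin, was not.

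**Figure D4:**
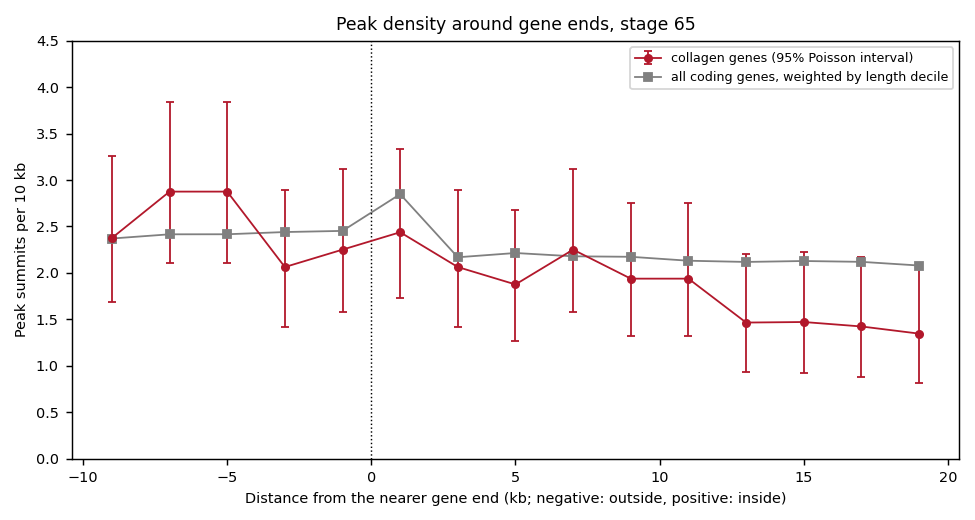
Peak summits per 10 kb in 2 kb bins by distance from the nearer gene end, from 10 kb outside (negative) to 20 kb inside (positive, up to mid-gene), for the 40 collagen genes with 95% Poisson intervals and for all coding genes weighted to the same length deciles. The collagen line is level with the other or above it from 10 to 4 kb outside and below it in every bin from there inward except 6 to 8 kb, reaching 1.35 in the last bin, against 2.08; every collagen interval holds the coding gene value.

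The ratio of peak density in collagen bodies to that in length-weighted coding genes was lower for strong peaks than for weak ones. Of the 730 summits in collagen bodies, 341 had a fold under 3, 235 a fold of 3 to 4, 132 of 4 to 8 and 22 of 8 or more. Pooled over collagen bodies, weak peaks below a fold of 3 stood at 0.801 per 10 kb (0.718 to 0.891), against 0.865 in length-weighted coding genes, a ratio of 0.927 and within counting error. For folds of 3 to 4 the ratio was 0.899, also within it. For folds of 4 to 8 the values were 0.310 (0.259 to 0.368) and 0.433, a ratio of 0.717. For folds of 8 or more they were 0.0517 (0.0324 to 0.0782) and 0.122, a ratio of 0.424. In both these bands the coding gene value lay above the collagen interval, which covers counting error only and not the spread between genes. The 22 summits of 8 or more lay in 12 of the 40 genes. Many were in col22a1 and col5a1, both within 10 Mb of a chromosome edge. Over 10 Mb from a chromosome edge the coding gene value lay above the collagen interval in every band, the weak ones included. There, peaks below a fold of 3 stood at 0.763 per 10 kb (0.678 to 0.856) in collagen bodies, against 0.876 in coding genes, and peaks of 3 to 4 at 0.486 (0.419 to 0.561), against 0.594. The ratios were 0.872 (under 3), 0.818 (3 to 4), 0.664 (4 to 8) and 0.321 (8 or more), the last resting on 8 collagen summits. Of the body peaks, 27 were over 2 kb wide. When only other coding genes' ends inside the same collagen span were counted, 1 lay within 1 kb of such an end, the col4a2 and col4a1 peak. Body peaks near ends just outside a span, such as the col14a1 peak at mrpl13, were not included in that count.

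**Figure D5:**
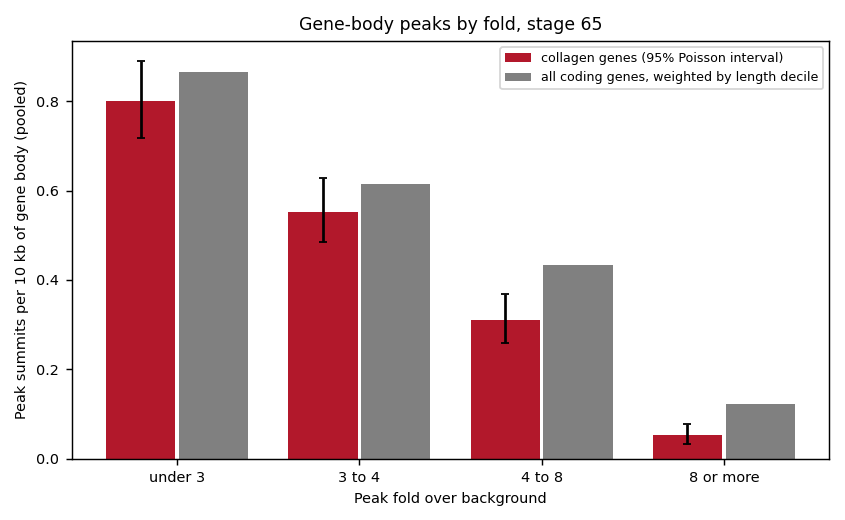
Pooled gene-body summits per 10 kb by peak fold, for the 40 collagen genes (95% Poisson intervals) and all coding genes weighted to the same length deciles; bars start at 0. Collagen bars are lower in every band, and the gap widens from a ratio of 0.927 below a fold of 3 to 0.424 at 8 or more.

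A body summit with a fold of 8 or more was present in 12 of 40 collagen genes (30%, 16.6 to 46.5), against 21.4% of all coding genes and 39.3% after weighting by length, which lies within the collagen interval. The highest was in col22a1, with a fold of 16.8 and 111 fragments on chromosome 6 at 145985448 to 145987309. In col4a6, a peak of 1797 bp on chromosome 8 at 50758356 to 50760152, 30.5 kb from the left end, had a fold of 13.9 and 92 fragments (74.2 to 113), and stood apart in a gene whose median body fold was 3.29. Next came col20a1 (12.6, in a peak 9269 bp wide), col9a3 (12), col5a1 (11.7), col16a1 (10.3, chromosome 2, 87578815 to 87579923), col25a1.2 (9.43), col8a1 (9.28), col7a1 and col26a1 (both 9.13) and col24a1 and col13a1 (both 8.83). In col9a1, which lacked a gene-end peak, the highest body peak had a fold of 6.14 with 40 fragments, 7.39 kb from the left end (chromosome 5, 93227857 to 93228640). In col11a2 the highest had a fold of 6.59 with 43 fragments, 36.7 kb from the left end (chromosome 8, 72353210 to 72354495). In 8 collagen genes, col1a1, col2a1, col3a1, col4a1, col6a6, col8a2, col9a2 and col17a1, no body peak reached a fold of 4 (20%, 9.05 to 35.6), against 37.9% of all coding genes and 8.05% after weighting by length, just outside the collagen interval.

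Within 10 kb of the span, 5 of 40 collagen genes had a summit with a fold of 8 or more (12.5%, 4.19 to 26.8), against 28.4% of all coding genes and 23.4% after weighting by length. Per 10 kb, such summits stood at 0.10 in collagen flanks (8 summits, 0.0432 to 0.197), against 0.169 in length-weighted coding genes; the value in collagen bodies was 0.0517. The 5 genes were col20a1 (29.6), col5a1 (20.5, at 7540277 to 7542091, 3.36 kb outside the left end), col14a1 (17.7), col7a1 (13.2) and col4a2 (11.8). Of these, col20a1 and col5a1 lie within 10 Mb of a chromosome edge. Flank summits with a fold of 3 to 4 were denser in collagen genes, at 0.9625 per 10 kb (0.760 to 1.20). The length-weighted value for coding genes was 0.751, below that interval. In the bands under 3 (0.80 against 0.944) and 4 to 8 (0.625 against 0.554) it lay within the collagen interval, as for 8 or more.

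Genes that make, move, crosslink or bind collagen varied by list, and their difference from collagen genes was not tested. Of 62 genes on lists of such partners, 59 matched the table, and 52 of these had a gene-end peak (88.1%, 77.1 to 95.1), against 87.2% of coding genes weighted to their lengths. Enzymes and chaperones of collagen synthesis had one in 19 of 20 genes, with a median best fold of 5.17, against 4.04 over all coding genes. The highest folds were 30.2 at creb3l1, a transcription factor of the secretory pathway, 18.3 at both p4ha3, a prolyl hydroxylase, and colgalt1, which adds galactose to collagen, and 15.7 at serpinh1, which encodes the collagen chaperone HSP47. Only plod1, a lysyl hydroxylase, had none. For secretion and trimming the count was 12 of 13, with the highest folds 9.88 at tll1 and 8.08 at pcolce, which speeds the trimming of procollagen, then 5.84 at sec23a and 5.69 at pcolce2, and none at adamts14.

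Crosslinking genes had a gene-end peak in 6 of 6, with 12 at loxl3, 7.64 at both lox and tgm2 and 4.04 at loxl1. Receptors had one in 8 of 8, with the highest folds 28.7 at itga1, 24.7 at itga10, 7.49 at itgb1 and 3.74 at mrc2. The median best fold was 3.52 in receptors and 2.55 in fibril-binding genes, against 4.04 over all coding genes, not weighted by length. It was 5.84 in crosslinking genes and 4.34 in genes of secretion and trimming. For crosslinking and receptors, and for synthesis and secretion and trimming, the length-weighted share of coding genes was 86.9 to 87.3%. That lies within the interval of each of these lists. Genes of fibril-binding proteins had 7 of 12 occupied (58.3%, 27.7 to 84.8), against 87.4% of coding genes weighted to their lengths, which lies outside the interval; bgn had the highest fold (3.74), followed by thbs1 (3.59), sparc (3.14) and fmod (2.99). None was called at dcn, lum, kera, ogn or fn1. Of these, kera, lum and dcn lie close together on chromosome 3 (55434987 to 55511098). The interval for fibril-binding genes counts them as separate genes. The bodies of lum and kera, small proteoglycans of the fibril surface, had 0 summits, and dcn had 2 in 30.4 kb. Median body density, in summits per 10 kb, was 1.22 in fibril-binding genes and 1.51 in biosynthesis genes, against 2.28 and 2.33 in coding genes weighted to the lengths of each list. It was 2.12 for secretion and trimming against 2.19, 2.99 for crosslinking against 2.25, and 2.66 for receptors against 2.14. Partner genes were not split by position. Of all coding genes, 93.8% had a gene-end peak within 10 Mb of a chromosome edge and 83.5% farther in. Among partners with high folds, p4ha3, serpinh1, pcolce, loxl3 and itga10 lie that near an edge, and creb3l1, colgalt1, tll1 and itga1 do not.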

How the data were processed

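ATAC-seq peaks of 1 stage 65 urostyle library were analysed; the labels give no replicate. The submitters' processing notes name Bowtie2, Picard, MACS2 and Genrich, with no role or version. Not given in the sources used here: genome build, read filters, and whether insertion sites were offset. The deposited list gives per peak a fold, which is a ratio of summit pileup plus 1 to a background of 5.68 fragments plus 1, a −log10 p, a −log10 q, the summit's offset and a score, which the deposited values show to be 10 times the −log10 q. Fragments were computed as fold divided by 0.1497, minus 1; the deposited −log10 p differed from a Poisson tail with that background by a median of 3.15e-06. Total library depth is not given.

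Peaks were counted at a gene end by overlap of at least 1 bp with 1 kb to each side, and in bodies and 10 kb flanks by summit, with Python 3.11.15 and pandas 2.3.3, checked on simulated data. Shares carry exact Clopper-Pearson intervals, medians binomial order-statistic intervals, counts Poisson intervals, all 95%. The Poisson intervals cover counting error only; the others treat genes as a sample. Background values are over all 21749 coding genes, or weighted directly to the members' length deciles. The members, classes and partner lists were chosen with earlier results of these data known. All members are named; positions are given for the strongest end peaks of each class, neighbouring pairs within 20 kb and the extremes of body density. Other positions given, and the comparisons with the 500 kb surroundings, chromosome edges, fold bands, strong body and flank peaks and profile, were chosen after values were seen. Start and finish of genes, promoter motifs and protein features were planned and not run, since no strand or sequence was used here.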

Additional observations from a re-analysis of the deposited data

How the results depend on the processing

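With 1 library and no test, no interval covers the spread between libraries. No paired analysis was possible because each stage has 1 library and the groups share only the number 1. Alternatives that use the annotated start or finish alone were not run, because the gene table has no strand. Of 34 alternatives over 6 summary values, 25 stayed within the interval of the reported value. The share of collagen genes with a gene-end peak was 97.5% with 2.5 kb windows, against 96.3% of length-weighted coding genes, so the deficit depended on the window. With peaks of at least the median fold it was 52.5% against 72.2%, and with a −log10 q of at least 5 it was 57.5% against 75.3%. Under the same stricter settings body density fell to 0.642 and 0.752 summits per 10 kb (0.880 and 1.03 in length-weighted genes), flank density to 1.00 and 1.50 (1.00 and 1.50), and the covered share of bodies to 5.03% and 5.34% (7.34% and 8.23%), as fewer peaks were counted. Body density stayed below its length-weighted value in 7 of 7 alternatives, covered share in 5 of 5, best fold in 6 of 6, and the ratio to surroundings in 2 of 2. The share with a gene-end peak did so in 7 of 8, and flank density in 1 of 6. Alternatives without genes near chromosome edges, without col9a3 and col20a1, and with surroundings of 200 kb or 1 Mb were added after seeing the data.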
